A study of Mus musculus with 4 samples.

Results

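The corticotropin-releasing hormone system was represented by 5 genes, chosen by name among the 31899 genes listed in all 4 libraries: Crh, Crhr1, Crhr2, Crhbp and Ucn3. They were followed by single-nucleus RNA sequencing of the mouse posterior substantia innominata, which lies in the basal forebrain beside the amygdala. The groups were 2 male and 2 female libraries, all from wild-type mice aged 8 weeks, for which the labels name no transgene or treatment, and the stated aim was to assess sex differences in neurons. Whether libraries of the same sex came from separate animals, or from pools, is not stated in the labels. The p-values between the sexes rest on the spread from library to library. Those between groups of nuclei, with library as a block, rest on how group differences vary from library to library. Either spread may be technical.

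Corticotropin-releasing hormone is the peptide that starts the pituitary-adrenal stress response from the hypothalamus, and in the extended amygdala it acts as a neuropeptide between neurons. Its receptors are G-protein-coupled and raise cyclic AMP through Gs. The receptor encoded by Crhr1 binds corticotropin-releasing hormone with high affinity, the one encoded by Crhr2 prefers the urocortins, and urocortin 3, encoded by Ucn3, is selective for the Crhr2 receptor. The secreted protein encoded by Crhbp binds corticotropin-releasing hormone and limits its access to receptors.

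In GENCODE vM21 on GRCm38, Crh (ENSMUSG00000049796) lies on the minus strand at chr3:19693401-19695396 and Ucn3 (ENSMUSG00000044988) on the minus strand at chr13:3940688-3945349. Crhr1 (ENSMUSG00000018634) lies on the plus strand at chr11:104132855-104175523, Crhr2 (ENSMUSG00000003476) on the minus strand at chr6:55090049-55133016 and Crhbp (ENSMUSG00000021680) on the minus strand at chr13:95431371-95444924. The promoters of the 3 genes that could be compared between groups of GABAergic nuclei are shown because Crhr2 and Crhbp had their highest level in the same group and Crhr1 did not. Each runs 5′ to 3′ on the gene's strand from 250 bases before to 50 bases after the start annotated by RefSeq (GRCm38.p6), with TATAAA, the core promoter motif known as the TATA box, in capitals. The windows lie at chr6:55132967-55133266 (minus strand) for Crhr2, chr13:95444782-95445081 (minus strand) for Crhbp and chr11:104132531-104132830 (plus strand) for Crhr1.
Crhr2: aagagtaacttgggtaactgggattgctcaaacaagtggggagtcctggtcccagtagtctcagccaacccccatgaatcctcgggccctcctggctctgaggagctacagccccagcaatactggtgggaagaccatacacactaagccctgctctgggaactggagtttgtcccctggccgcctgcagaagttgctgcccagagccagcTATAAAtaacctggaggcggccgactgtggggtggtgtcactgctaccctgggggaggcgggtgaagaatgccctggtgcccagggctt
Crhbp: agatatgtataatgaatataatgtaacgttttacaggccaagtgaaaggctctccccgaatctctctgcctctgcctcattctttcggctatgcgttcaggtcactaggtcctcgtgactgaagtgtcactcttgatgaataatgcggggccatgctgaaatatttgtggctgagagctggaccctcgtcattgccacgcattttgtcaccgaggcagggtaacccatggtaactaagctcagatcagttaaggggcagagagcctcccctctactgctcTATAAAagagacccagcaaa
Crhr1: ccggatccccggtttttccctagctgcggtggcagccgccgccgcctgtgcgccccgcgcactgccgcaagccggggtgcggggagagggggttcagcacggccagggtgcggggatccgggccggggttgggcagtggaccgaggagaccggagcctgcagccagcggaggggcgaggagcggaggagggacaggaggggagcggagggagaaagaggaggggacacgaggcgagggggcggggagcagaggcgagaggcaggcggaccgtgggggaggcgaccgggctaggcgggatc
On the gene's own strand, TATAAA was found at base 212 of the Crhr2 window and at base 281 of the Crhbp window, past the annotated start, and not in the Crhr1 window. Of 32851 mouse promoters of the same length, 8.32% held TATAAA on the gene's strand, and 13.6% held it on either strand. GGGCGG, the GC box, was found in the Crhr1 window only, searched on both strands in all 3, and in 35.7% of all promoters. The Crhr1 window was 75.0% G or C with 31 CpG dinucleotides, the Crhr2 window 59.0% with 5 and the Crhbp window 48.0% with 9, against a median of 52.7% G or C over all promoters. A match of letters is a description and not a binding site.

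Values are counts of unique molecular identifiers (UMIs, each a captured RNA molecule). The male libraries held 158132452 and 144035342 UMIs and the female libraries 53098268 and 53679351, and after filtering 8829, 8577, 10881 and 10581 nuclei remained in male 1, male 2, female 1 and female 2. Nuclei were put in 7 classes by UMIs of defining genes, and 5934, 5753, 5132 and 5107 nuclei fell in exactly 1 class in the same order of libraries. GABAergic nuclei, defined by Gad1 and Gad2, were the most numerous with 3909, 3819, 3086 and 2735, and were split further by UMIs of Drd1, Drd2, Tshz1, Moxd1 or Sst. Of markers not used to define the classes, all 6 cholinergic ones and all 5 of each glial class were highest in their own class, as were 5 of 6 glutamatergic ones, but only 4 of 7 GABAergic ones. Slc32a1, the vesicular GABA transporter, averaged 40.5 UMIs per 1000000 UMIs of the group (CPM) in GABAergic nuclei and 39.1 CPM in oligodendrocytes, whereas Dlx6os1 averaged 196 and 46.8 CPM, Dlx1 8.73 and 3.41 CPM, Dlx5 8.40 and 3.00 CPM and Dlx6 9.39 and 2.78 CPM in the same classes. Whether these UMIs in oligodendrocytes came from free RNA was not tested, and levels in oligodendrocytes are given beside those of neurons. Barcode set, software version, gene list and depth changed together with sex and cannot be told apart from it. Gene list and software version also differed between the females, with 55357 genes listed under Cell Ranger 7.0.0 in female 1 and 32285 under 7.2.0 in female 2.

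Crh itself was sparse. GABAergic nuclei held 3.08 and 3.73 CPM in male and 2.13 and 5.88 CPM in female libraries, from 174, 201, 41 and 125 UMIs. Oligodendrocytes, which should lack the gene, held 3.13 and 2.95 CPM in male and 0.987 and 5.14 CPM in female libraries. GABAergic nuclei were slightly below oligodendrocytes in male 1 and above them in the other libraries, and female 2 was highest and female 1 lowest in both classes. In nuclei thinned to 2000 UMIs each, 0.845% and 0.655% of male and 0.560% and 1.26% of female GABAergic nuclei had a Crh UMI, against 1.13%, 0.760%, 0% and 0.887% of oligodendrocytes in the same order. The share was below that of oligodendrocytes in both males and above it in both females, with 0 of 483 oligodendrocytes in female 1 allowing up to 0.621%. Before thinning, the shares were 3.25%, 3.98%, 1.23% and 3.29% of GABAergic nuclei at a median of 12483, 12020, 5867 and 6163 UMIs, against 1.08%, 0.839%, 0.249% and 1.23% of oligodendrocytes at 2163, 2100, 1853 and 1504 UMIs. The unthinned share was higher in GABAergic nuclei in all 4 libraries, with the depths also higher.

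Nuclei with several Crh UMIs were nevertheless found almost only outside glia. At least 3 Crh UMIs were held by 38 nuclei over the 4 libraries, of which 27 were GABAergic, 9 fell in several classes, 1 in none and 1 in a glial class. Among GABAergic nuclei they numbered 11 and 7 in male and 1 and 8 in female libraries. The highest count was 17 UMIs in 1 nucleus of male 2, and of the 27 GABAergic nuclei 23 were outside all 5 splits, 2 in the Drd1 split and 2 in the Drd2 split. Over 6928 glial nuclei, 66 had at least 1 Crh UMI, 3 at least 2 and 1 had 3, but glial nuclei were also several times shallower.

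**Figure D1:**
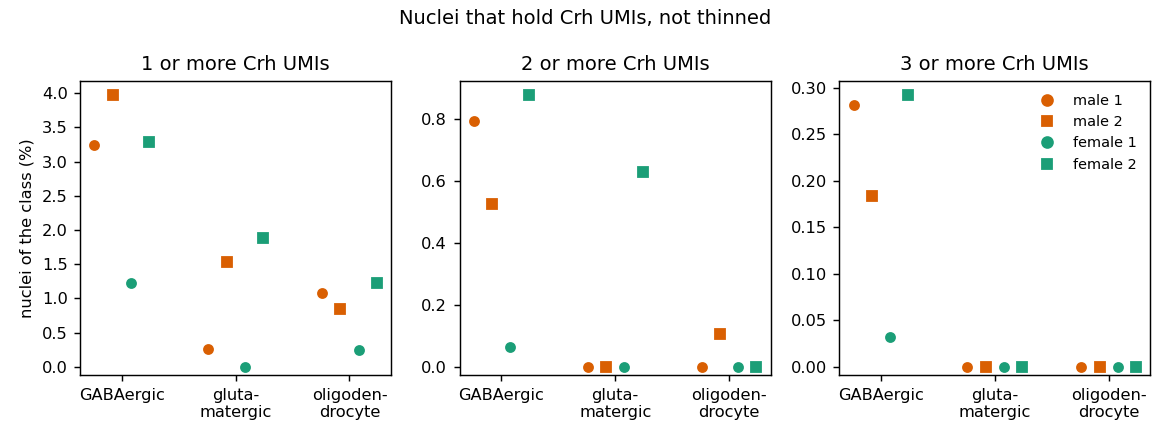
Share of nuclei of 3 classes (y axis, percent, linear) that held at least 1, 2 or 3 Crh UMIs, with a point for each library (males left of females within a class) and no thinning to equal depth. At 3 or more UMIs only GABAergic nuclei have points above 0, with 11, 7, 1 and 8 nuclei in male 1, male 2, female 1 and female 2.

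Across 12 groups of nuclei (the 6 GABAergic groups and the other 6 classes), mean Crh ranged between 5.42 ± 4.90 CPM in the Drd1 split and 0.286 ± 0.572 CPM in cholinergic nuclei (SD, n = 4 libraries). The order between these ends was the Drd2 split at 5.04 ± 2.46, microglia at 4.23 ± 2.66, unsplit GABAergic nuclei at 3.66 ± 1.61, the Moxd1 split at 3.50 ± 1.97 and the Sst split at 3.32 ± 2.66 CPM. It went on with OPCs at 3.21 ± 3.60, oligodendrocytes at 3.05 ± 1.70, astrocytes at 2.96 ± 2.95, the Tshz1 split at 2.59 ± 0.983 and glutamatergic nuclei at 1.07 ± 1.36 CPM. Of neighbours in this order, only the Tshz1 split and glutamatergic nuclei differed by more than the larger SD of the pair, and their ranges overlapped. Crh did not pass the filter on low counts in the comparisons of classes and splits, so no test was made there.

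Ucn3, the urocortin selective for the receptor encoded by Crhr2, was near the limit of detection. It gave 18 and 14 UMIs in male and 2 and 21 UMIs in female GABAergic nuclei, which is 0.318 and 0.260 CPM in male and 0.104 and 0.988 CPM in female libraries. Female 2 was highest and female 1 lowest, as for Crh. Oligodendrocytes held 0.569 and 1.64 CPM in male and 0 and 1.21 CPM in female libraries, so the GABAergic level lay below that of oligodendrocytes in 3 of 4 libraries. Group means ranged between 0.889 ± 1.43 CPM in the Tshz1 split and 0 in the Drd1, Moxd1 and Sst splits, and no 2 neighbours in the order differed beyond their SD. Of the 5 nuclei with at least 3 Ucn3 UMIs, 1 was GABAergic, 2 fell in several classes and 2 in none, with up to 7 UMIs in female 2. The other urocortins were rarer: Ucn was listed at 0 UMIs in GABAergic nuclei of all 4 libraries, where 3 counts would be the floor, and Ucn2 gave 9 and 2 UMIs in male and 2 and 2 in female libraries.

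Crhr1 was found in both GABAergic and glutamatergic neurons. GABAergic nuclei held 22.8 and 21.6 CPM in male and 25.4 and 28.6 CPM in female libraries, and glutamatergic nuclei 22.8 and 19.4 CPM in male and 27.1 and 24.5 CPM in female libraries. Both classes stood above oligodendrocytes in every library, which held 5.69 and 6.89 CPM in male and 12.8 and 9.07 CPM in female libraries. In the edgeR quasi-likelihood fit with library as a block, the mean of GABAergic and glutamatergic nuclei exceeded the mean of the 4 glial classes by 4.25-fold (log2 fold 2.09 ± 0.17 SE, adjusted p = 3.6e-12). Crhr1 was the only member that passed the filter in this fit, in which 68.4% of 12389 genes were called and 31.3% were higher in neurons.

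Levels of Crhr1 were lower in cholinergic nuclei, the acetylcholine neurons of the basal forebrain. These held 14.5 and 11.4 CPM in male and 23.7 and 13.6 CPM in female libraries, below GABAergic nuclei of the same library in all 4, with a log2 fold of -0.58 ± 0.21 (SE, edgeR adjusted p = 0.0388, 11.4% of 12389 genes called lower). The call was lost with DESeq2 (log2 fold -0.57, adjusted p = 0.119) and when male 1, male 2 or female 2 was left out, with adjusted p-values of 0.122, 0.134 and 0.173. Glutamatergic against GABAergic nuclei gave a log2 fold of -0.02 ± 0.16 (SE, edgeR adjusted p = 0.999), in a fit that called 8.31% of 12389 genes, 4.1% higher and 4.21% lower. Microglia gave 1 and 0 Crhr1 UMIs in male and 10 and 9 in female libraries, or 2.11, 0, 25.4 and 14.4 CPM. Both males lay below both females there, as for 24.2% of 12389 genes, on few UMIs.

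Among GABAergic nuclei, those of the Tshz1 split, defined by the zinc-finger transcription factor gene Tshz1, had the highest mean Crhr1 level and those of the Moxd1 and Sst splits the lowest. The Tshz1 split held 35.5 and 41.1 CPM in male and 24.6 and 34.8 CPM in female libraries, the female 1 value resting on 13 UMIs. Its log2 fold over the mean of the other 5 GABAergic groups was 1.30 ± 0.14 (SE, edgeR adjusted p = 5.2e-10, 6.56% of 11806 genes called higher). The mean of the other groups includes the low Moxd1 and Sst splits. Unsplit nuclei, most of the class, lay closer, at 25.2 ± 3.60 CPM against 34.0 ± 6.87 CPM in the Tshz1 split (SD, n = 4). The Tshz1 split was above unsplit nuclei in both males and female 2. In female 1 it was below them, at 24.6 against 26.1 CPM. The Moxd1 split, defined by Moxd1, which encodes a monooxygenase related to dopamine beta-hydroxylase, held 11.8 and 9.59 CPM in male and 5.48 and 12.2 CPM in female libraries. This was a log2 fold of -0.86 ± 0.20 (SE, edgeR adjusted p = 0.00145, 9.55% called lower). The log2 folds of the Drd1, Drd2 and Sst splits were -0.02 ± 0.19, 0.13 ± 0.16 and -1.09 ± 0.35, and none passed the test (edgeR adjusted p = 0.991, 0.694 and 0.0820).

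Over the 12 groups, mean Crhr1 was 34.0 ± 6.87 CPM in the Tshz1 split, 25.2 ± 3.60 in unsplit GABAergic, 23.5 ± 3.23 in glutamatergic, 20.2 ± 6.55 in Drd1-split, 18.9 ± 2.02 in Drd2-split and 15.8 ± 5.43 in cholinergic nuclei (SD, n = 4). It was 10.5 ± 11.8 CPM in microglia, 9.78 ± 3.10 in the Moxd1 split, 8.62 ± 3.14 in oligodendrocytes, 7.05 ± 6.26 in the Sst split, 4.71 ± 1.69 in OPCs and 3.83 ± 2.35 in astrocytes. Only the step between the Tshz1 split and unsplit GABAergic nuclei exceeded the larger SD, and the ranges of this pair overlapped. Thinned to 2000 UMIs, 3.76% and 4.06% of male and 4.98% and 4.63% of female GABAergic nuclei had a Crhr1 UMI, against 0.324%, 0.570%, 1.24% and 1.77% of oligodendrocytes in the same order. Before thinning these shares were 22.8% and 21.3% in male and 13.1% and 15.6% in female GABAergic nuclei, against 1.68%, 1.68%, 2.91% and 2.09% of oligodendrocytes, so the order of the sexes turned with depth.

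**Figure D2:**
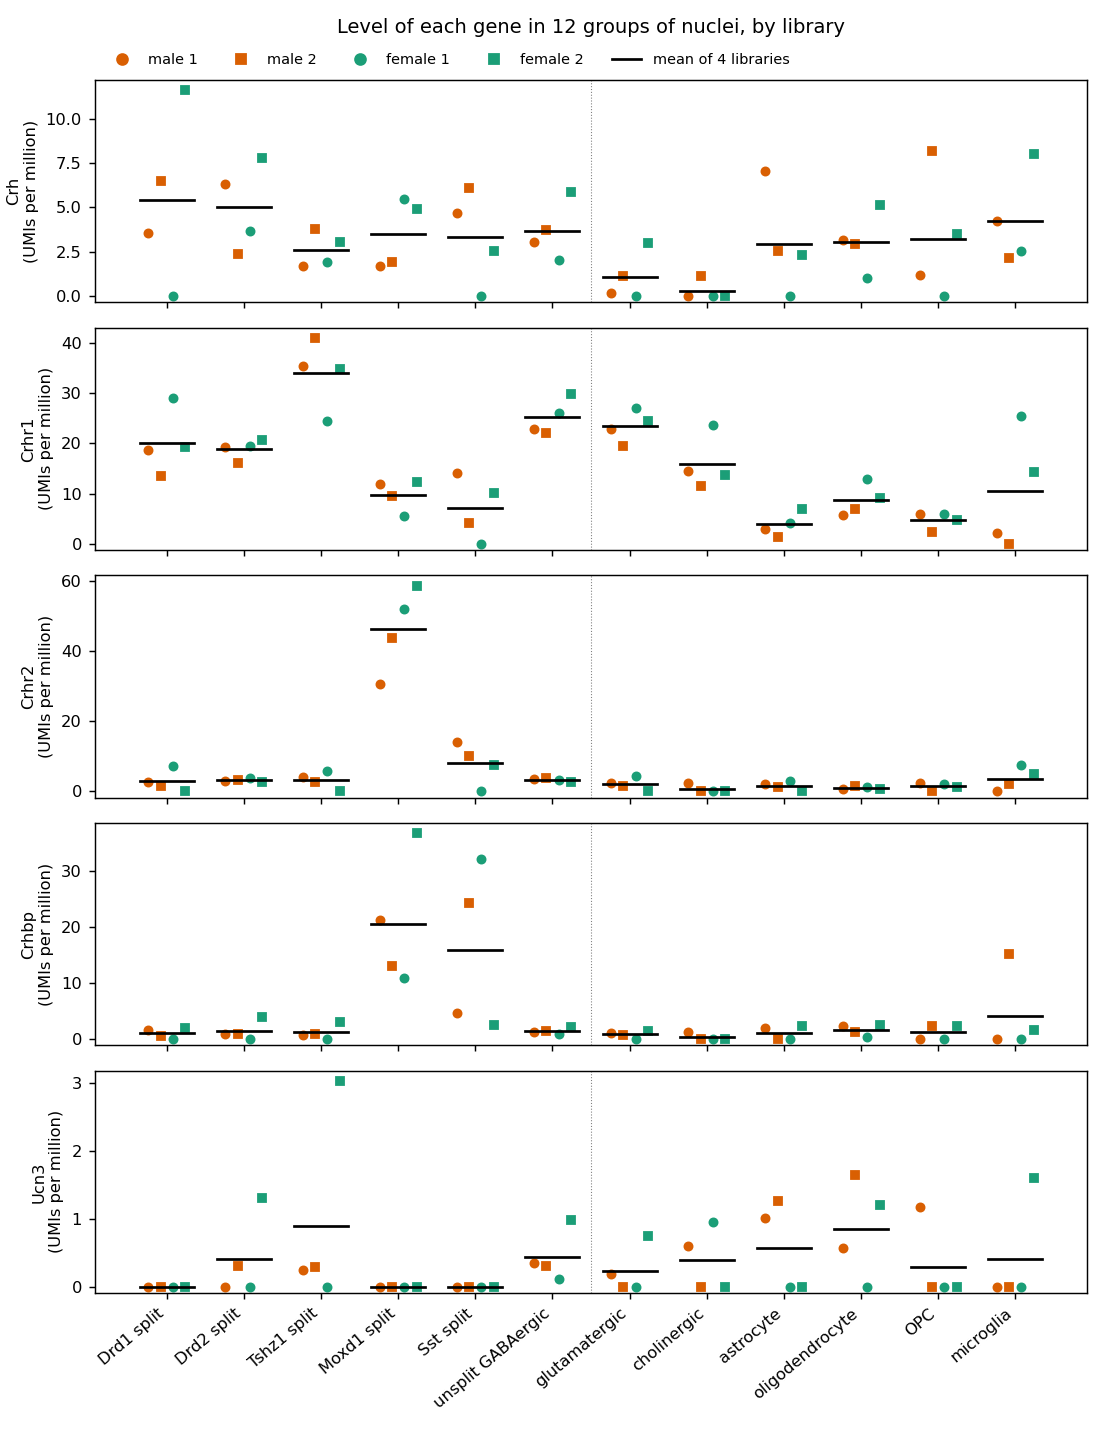
Level of each of the 5 genes (rows, in CPM, linear axes that differ between rows) in 12 groups of nuclei, with a point per library, males left of females, and a bar at the mean of 4 libraries. Crhr2 stands at 30.8 to 58.8 CPM in the Moxd1 split and at 14.1 CPM or less in every other group and library. Crhr1 has its highest mean in the Tshz1 split, but in female 1 the Drd1-split, glutamatergic, unsplit and microglial values lie above it.

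Crhr2, the receptor preferred by urocortins, was concentrated in the Moxd1 split. Those nuclei held 30.8 and 43.7 CPM in male and 52.0 and 58.8 CPM in female libraries, from 91, 114, 19 and 24 UMIs. All 4 values lay above every value of the other 11 groups. Unsplit GABAergic nuclei held 3.61 and 3.77 CPM in male and 3.36 and 2.62 CPM in female libraries, and oligodendrocytes 0.569 and 1.64 CPM in male and 1.32 and 0.605 CPM in female libraries. The log2 fold of the Moxd1 split over the mean of the other GABAergic groups was 3.38 ± 0.19 (SE, 10.4-fold, edgeR adjusted p = 1.4e-17, higher in 4 of 4 libraries, 9.26% of 11806 genes called higher). Moxd1-split nuclei held 29.8% and 35.8% of the Crhr2 UMIs of male and 22.4% and 30.4% of those of female GABAergic nuclei, while holding 5.23% and 4.83% of all male and 1.90% and 1.92% of all female GABAergic UMIs.

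Elsewhere Crhr2 was low. In order of the mean, the Moxd1 split at 46.3 ± 12.1 CPM was followed by the Sst split at 7.94 ± 5.95, microglia at 3.65 ± 3.30, unsplit GABAergic nuclei at 3.34 ± 0.508, the Drd2 split at 3.13 ± 0.449 and the Tshz1 split at 3.08 ± 2.41 CPM (SD, n = 4). The Drd1 split at 2.87 ± 3.16, glutamatergic nuclei at 2.06 ± 1.82, astrocytes at 1.52 ± 1.19, OPCs at 1.38 ± 1.04, oligodendrocytes at 1.03 ± 0.531 and cholinergic nuclei at 0.602 ± 1.21 CPM followed. Only the first step, between the Moxd1 and the Sst split, exceeded the larger SD of the pair. Against the other GABAergic groups, which include the Moxd1 split, the log2 fold of Crhr2 was -1.71 ± 0.43 in the Drd1 split and -0.98 ± 0.34 in the Drd2 split (SE, edgeR adjusted p = 0.00740 and 0.0410, 2.87% and 6.38% of genes called lower). In these fits 6.59% and 15.3% of 11806 genes were called in either direction, 8.91% being higher in the Drd2 split. The Drd1 call was lost without male 1 (adjusted p = 0.0564) or male 2 (0.205) and with class thresholds raised by 1 UMI (0.159), and the Drd2 call with DESeq2 (0.0579) and without male 1 (0.367), male 2 (0.137) or female 1 (0.101). The Tshz1 split at -0.95 ± 0.33 and the Sst split at 1.15 ± 0.46 did not pass (edgeR adjusted p = 0.0525 and 0.223).

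After thinning to 2000 UMIs, 6.44% and 8.81% of male and 10.3% and 7.69% of female Moxd1-split nuclei had a Crhr2 UMI, against 0%, 0.380%, 0.414% and 0% of oligodendrocytes. Counts in single nuclei pointed to the same group: 26 of the 42 GABAergic nuclei with at least 3 Crhr2 UMIs were in the Moxd1 split, 9 and 16 of them in male and 1 and 0 in female libraries. The highest count was 8 UMIs, in male 2. Of 6928 glial nuclei, 27 held any Crhr2 UMI and none held 3.

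Crhbp, which encodes the binding protein, had its highest mean in the same Moxd1 split. Its level there was 21.3 and 13.0 CPM in male and 10.95 and 36.7 CPM in female libraries, from 63, 34, 4 and 15 UMIs. In unsplit GABAergic nuclei it was 1.29 and 1.41 CPM in male and 0.926 and 2.13 CPM in female libraries, so the 2 groups did not overlap. Against the mean of the other GABAergic groups the log2 fold was 3.39 ± 0.29 (SE, 10.5-fold, edgeR adjusted p = 1.9e-12). In the Moxd1 fit the 3 members that passed the filter were Crhr2 and Crhbp, both higher, and Crhr1, which was lower. That fit called 18.8% of 11806 genes in either direction. Crhbp passed the filter on low counts only through its level in the Moxd1 split itself. The number of members called is therefore not read against that share.

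The Sst split, nuclei rich in the somatostatin gene, came next for Crhbp, but with widely spread libraries. It held 4.71 and 24.3 CPM in male and 32.1 and 2.51 CPM in female libraries, from 3, 12, 1 and 1 UMIs in 37, 33, 5 and 48 nuclei. Its log2 fold was 2.30 ± 0.56 (SE, edgeR adjusted p = 0.00936, 1.87% of genes called higher), but without male 2 it fell to 0.82 with an adjusted p of 0.812, and with thresholds raised by 1 UMI the adjusted p was 0.278. The Tshz1 split held 0.715 and 0.867 CPM in male and 0 and 3.03 CPM in female libraries. Its mean was 1.15 ± 1.31 CPM, against 1.44 ± 0.504 CPM in unsplit nuclei (SD, n = 4). Against the mean of the other groups, which include the Moxd1 and Sst splits, it lay lower (log2 fold -1.77 ± 0.56 SE, edgeR adjusted p = 0.0287, 5.21% called lower). That call was lost with raised thresholds (adjusted p = 0.291), after removal of the highest doublet scores (0.0560) and without male 1 (0.344), male 2 (0.166) or female 1 (0.0699). The Drd1 and Drd2 splits at -1.43 ± 0.64 and -1.41 ± 0.55 did not pass (edgeR adjusted p = 0.231 and 0.0784).

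Mean Crhbp over the 12 groups was 20.5 ± 11.7 CPM in the Moxd1 split, 15.9 ± 14.6 in the Sst split, 4.18 ± 7.33 in microglia and between 0.301 ± 0.602 CPM in cholinergic nuclei and 1.58 ± 0.971 CPM in oligodendrocytes in the other 9 groups (SD, n = 4). No 2 neighbours in this order differed by more than the larger SD. The microglial mean rested on male 2, with 7 UMIs against 0, 0 and 1 in male 1, female 1 and female 2. Unsplit GABAergic nuclei at 1.44 ± 0.504 CPM lay within the spread of oligodendrocytes. The share of nuclei with a Crhbp UMI averaged 1.19% in unsplit nuclei and 0.375% in oligodendrocytes before thinning, at different depths, and 0.389% and 0.328% after thinning to 2000 UMIs. Of the 24 GABAergic nuclei with at least 3 Crhbp UMIs, 13 were in the Moxd1 split, 5 were unsplit, 5 met the thresholds of several splits and 1 was in the Sst split.

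Other signalling genes also differed in the Moxd1 split. Of 11 tested genes of a list of 28 peptide genes, Cartpt, Npy and Pnoc were higher and Nts, Pdyn, Penk and Tac2 lower, with a median log2 fold of -0.30 against 0.02 over all genes, of which 9.26% were called higher and 9.55% lower. Npy, the neuropeptide Y gene, had a log2 fold of 1.88 ± 0.26 and Penk, the proenkephalin gene, of -1.02 ± 0.13 (SE, edgeR adjusted p = 2.4e-07 and 3.1e-08). Of a list of 32 receptor signalling genes, among them G protein alpha subunits, adenylyl cyclases, protein kinase A subunits and receptor kinases, 7 were higher, among them the adenylyl cyclase genes Adcy1, Adcy6 and Adcy8, and 7 were lower, among them Adcy5, Adcy9 and Gnal, the Gs-like alpha subunit of the striatum. In the Tshz1 split, Avp was the 1 peptide gene higher and 6 were lower of 11, where 6.56% of all genes were called higher and 5.21% lower. Sst, 1 of these 6, was kept low by the rule, because nuclei with 3 Sst UMIs were left out of the Tshz1 split. Of the 32 signalling genes, 5 were higher and 3 lower.

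**Figure D3:**
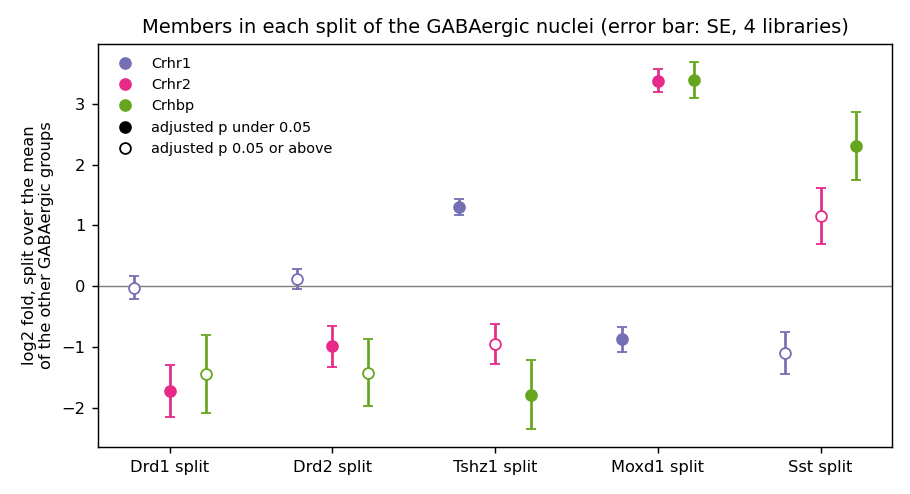
Log2 fold of Crhr1, Crhr2 and Crhbp (y axis) in each of 5 splits of the GABAergic nuclei over the mean of the other GABAergic groups, with SE bars from the edgeR fit over 4 libraries; filled points have an adjusted p under 0.05. Crhr2 and Crhbp reach 3.38 and 3.39 in the Moxd1 split, where Crhr1 is at -0.86, and Crhr1 reaches 1.30 in the Tshz1 split.

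Over the 12 groups, mean log2(CPM + 1) of Crhr2 and Crhbp ran together with Pearson r = 0.891, whereas Crhr1 had r = -0.039 with Crhr2 and -0.307 with Crhbp. These are descriptions over 12 groups that share 4 libraries. Among 12844 genes of at least 10 CPM in some group, the patterns most like that of Crhr2 were those of Gm31218 (r = 0.926), Dlx1as (0.903), Col19a1 (0.901), Chodl (0.888) and Pth2r (0.875), all highest in the Moxd1 split. The patterns most like that of Crhbp were those of Dlx1as (r = 0.902), Nxph2 (0.882), Npy (0.881), Myof (0.879) and Vgf (0.874), of which the last 3 were highest in the Sst split. Most like Crhr1 were Cdon (r = 0.942) and Zfp940 (0.941), both highest in the Tshz1 split, Ccl27a (0.941), Numbl (0.936) and Gm41361 (0.934). The genes most like Crh and Ucn3, led by Ksr1 (r = 0.874) and Prkdc (0.884), were matched to levels that rest on few UMIs.

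In single GABAergic nuclei, Crhbp was found more often beside Crhr2 in 3 of 4 libraries. Of nuclei with a Crhr2 UMI, 7.76% and 5.66% in male and 0% and 11.1% in female libraries also had a Crhbp UMI, against 2.38%, 1.83%, 0.697% and 1.65% of nuclei without Crhr2. These are 17, 12, 0 and 7 nuclei, and median depths were 12598, 12041, 5670 and 7063 UMIs with Crhr2 and 12475, 12016, 5873 and 6142 UMIs without. Within the Moxd1 split the same shares were 21.1% and 8.47% in male and 0% and 29.4% in female libraries with Crhr2, against 20%, 8.96%, 8.89% and 13.9% without, so the share was higher in some libraries and lower in others. Crhr1 was found beside Crhr2 in 41, 42, 7 and 9 nuclei, and the share of Crhr1 nuclei with Crhr2 was 4.60% and 5.17% in male and 1.73% and 2.11% in female libraries, against 5.90%, 5.66%, 2.54% and 2.34% of nuclei without Crhr1. It was lower in all 4 libraries although the Crhr1 nuclei were deeper, at 15247, 14718, 6859 and 9440 UMIs against 11825, 11477, 5705 and 5812 UMIs. Within the Moxd1 split the shares were 35%, 55.0%, 0% and 33.3% of Crhr1 nuclei, against 27.5%, 27.8%, 23.2% and 32.0% of the others, on 7, 11, 0 and 1 nuclei with both, so there the share was higher in 3 of 4 libraries. The Crhr1 nuclei of the Moxd1 split were also deeper, at 21025, 16854, 16909 and 9860 UMIs against 11047, 10554, 5483 and 5826 UMIs, and the female 2 share is 1 of 3 nuclei.

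Between males and females, none of the 5 genes passed the test in GABAergic nuclei. Crhr2 was higher in both males, at 5.39 and 5.90 CPM against 4.41 and 3.72 CPM in the females, with a log2 fold of 0.54 ± 0.25 (SE, edgeR adjusted p = 0.380). Crhr1 was lower in both males, at 22.8 and 21.6 CPM against 25.4 and 28.6 CPM in the females (log2 fold -0.21 ± 0.12 SE, edgeR adjusted p = 0.474). These 2 genes did not overlap between the sexes, as was true of 51.4% of the 18345 genes tested. With 2 libraries against 2, an exact permutation test cannot go below p = 0.333.

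Crh, Crhbp and Ucn3 overlapped between the sexes, and the females stood apart from each other. Crh was at 3.08 and 3.73 CPM in male and 2.13 and 5.88 CPM in female libraries (log2 fold -0.14 ± 0.52 SE, edgeR adjusted p = 0.921). Crhbp was at 2.48 and 2.39 CPM in male and 1.14 and 2.87 CPM in female libraries (0.37 ± 0.48, 0.744), and Ucn3 gave -0.82 ± 0.94 (0.708). The folds depended on the females: without female 1 the log2 fold was -0.57 for Crh, 0.82 for Crhr2 and -1.54 for Ucn3. Without female 2 it was 0.70 for Crh and 1.12 for Crhbp. With 1 female library left, its spread is assumed to be that of the males, so only the folds are given here. With all 4 libraries 1 of 18345 genes (0.00545%), Xist, was called. An unadjusted p under 0.05 was reached by 2932 genes in that edgeR fit, and DESeq2 called 901.

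**Figure D4:**
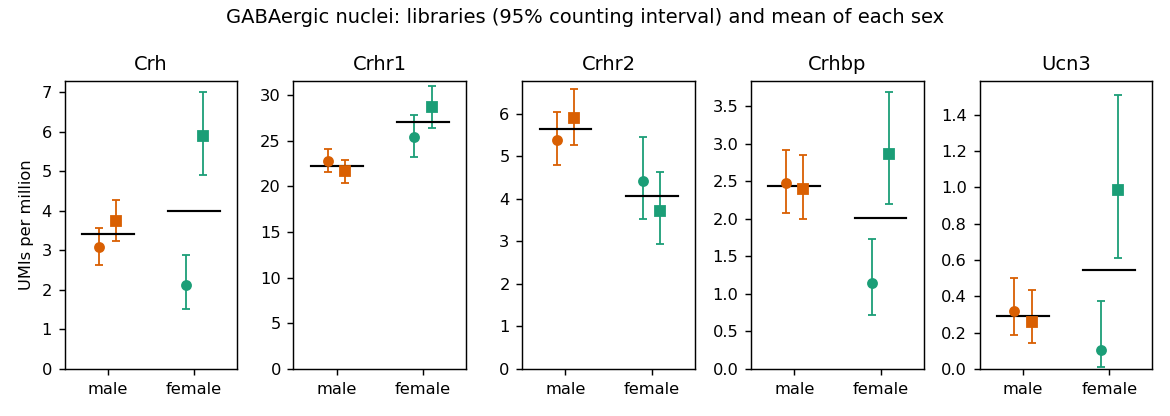
Level of each gene in GABAergic nuclei (y axes, CPM, starting at 0), males left and females right, with circles for library 1 and squares for library 2 of each sex, error bars for the 95% counting interval and a bar at the mean of each sex. Crhr2 is higher and Crhr1 lower in both males, and for Crh, Crhbp and Ucn3 female 2 lies above and female 1 below both males.

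In glutamatergic nuclei only Crhr1 passed the filter, with 22.8 and 19.4 CPM in male and 27.1 and 24.5 CPM in female libraries. Both males were lower, but the log2 fold of -0.23 ± 0.23 (SE, edgeR adjusted p = 0.712) did not pass, in a fit that called 8 of 12675 genes (0.0631%, with 0.0394% higher and 0.0237% lower), and 46.2% of genes did not overlap between the sexes. The direction of the difference was not the same in every group. In the Moxd1 split Crhr2 was at 30.8 and 43.7 CPM in male and 52.0 and 58.8 CPM in female libraries, both males below, as for 23.9% of 11806 genes there, while in unsplit nuclei both males were above, as for 18.5%. The share of Moxd1-split nuclei in GABAergic UMIs was 5.23% and 4.83% in male and 1.90% and 1.92% in female libraries. It was higher in both males, as was Crhr2 in the whole class. Within each sex the order turned, with Crhr2 at 5.39 and 5.90 CPM in males and 4.41 and 3.72 CPM in females. The split needed 2 Moxd1 UMIs at median GABAergic depths of 12483, 12020, 5867 and 6163 UMIs. The parts of share and depth in the difference were not tested. Neither the 24 tested genes of the peptide list nor the 32 of the list of receptor signalling genes held a called gene between the sexes in GABAergic nuclei, with median log2 folds of -0.21 and -0.11 against -0.04 over all genes.

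To describe the neurons that hold each gene, GABAergic nuclei with the gene's UMIs (carriers) were compared with those that had none, library by library. Carriers had at least 2 UMIs for Crhr1 and at least 1 UMI for Crhr2, Crhbp and Crh, because at 2 UMIs some library had fewer than 15 carriers. Ucn3 was not compared, having 1 carrier in female 1. Carriers at 1 UMI may include nuclei whose UMI came from free RNA, which was not tested.

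Crhr1 carriers numbered 269 and 233 in male and 72 and 119 in female libraries. Their median depth was 17176 and 18057 UMIs in male and 7790 and 13244 UMIs in female libraries. The other nuclei were shallower, at 11825, 11477, 5705 and 5812 UMIs, and the part of depth in the differences was not tested. Carriers were richer in Gpc5, a glypican, at 1371 and 1775 CPM in male and 1446 and 1756 CPM in female carriers, against 418, 398, 540 and 464 CPM in the other nuclei of the same libraries. All 4 carrier values were higher, with a log2 fold of 1.84 ± 0.10 (SE, edgeR adjusted p = 2.0e-08). Among genes of at least 20 CPM, the other leading genes were Gm40663 (log2 fold 1.94), the homeobox factor genes Gbx1 (1.93) and Lhx8 (1.76), Rxfp2, a relaxin family receptor (1.92), the EGF-repeat receptor genes Megf10 (1.79) and Megf11 (1.75), and Syt2, a calcium sensor of transmitter release (1.60). Each of these 8 was higher in carriers of all 4 libraries. Lower were Egfr, the epidermal growth factor receptor (-2.27), Moxd1 (-2.11) and the transcription factor genes Maf (-1.78) and Zeb2 (-1.49), each in all 4 libraries, within 708 of 15145 genes called (4.67%).

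Lhx8 and Gbx1 are also markers of cholinergic neurons, and the 6 cholinergic markers summed to 64.3 and 67.3 CPM in male and 46.1 and 130 CPM in female Crhr1 carriers, against 32.7, 36.3, 37.7 and 63.2 CPM in the other nuclei. Of the 6, these 2 were called higher and 1 more was tested. Slc18a3 was at 0 in carriers of all 4 libraries, against 0, 0.125, 0.185 and 0.429 CPM in the other nuclei. Nuclei with at least 2 UMIs of Chat and Slc5a7 were kept out of this class, and Slc18a3 was very low on both sides. The zeros therefore cannot show whether carriers include cholinergic neurons. Of the list of 28 peptide genes, 17 were tested and 5 were lower in Crhr1 carriers, namely Nts, Penk, Pmch, Sst and Tac1, and none was higher; the median log2 fold was -0.70 against -0.01 over all 15145 genes, of which 2.83% were called higher and 1.84% lower. In Crhr1 carriers markers of other cell types, among them Slc1a3 (astrocyte), Mobp (oligodendrocyte) and P2ry12 (microglia), were lower and 1 of 4 OPC markers (Lhfpl3) was higher, and their part in the other differences was not tested. Penk was at 41.5 and 53.2 CPM in male and 14.3 and 47.5 CPM in female carriers, against 95.8, 101, 34.5 and 96.7 CPM in the others (log2 fold -1.02 ± 0.10 SE, edgeR adjusted p = 9.0e-06). In the receptor signalling list, the adenylyl cyclase genes Adcy1, Adcy2 and Adcy8 were higher and Prkar2b, a regulatory subunit gene of protein kinase A, was lower of 32 tested. Crhr2 was also lower in Crhr1 carriers, at 3.22 and 3.38 CPM in male and 1.59 and 1.10 CPM in female libraries, against 6.16, 6.44, 4.70 and 4.11 CPM (log2 fold -1.01 ± 0.26 SE, edgeR adjusted p = 0.0324). This call was lost with DESeq2 (adjusted p = 0.120) and without male 1 (0.160), male 2 (0.168) or female 1 (0.0540). Crhbp gave -0.96 ± 0.36 (SE, edgeR adjusted p = 0.144), and with carriers at 1 UMI it passed, at -1.47 with an adjusted p of 0.00254.

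**Figure D5:**
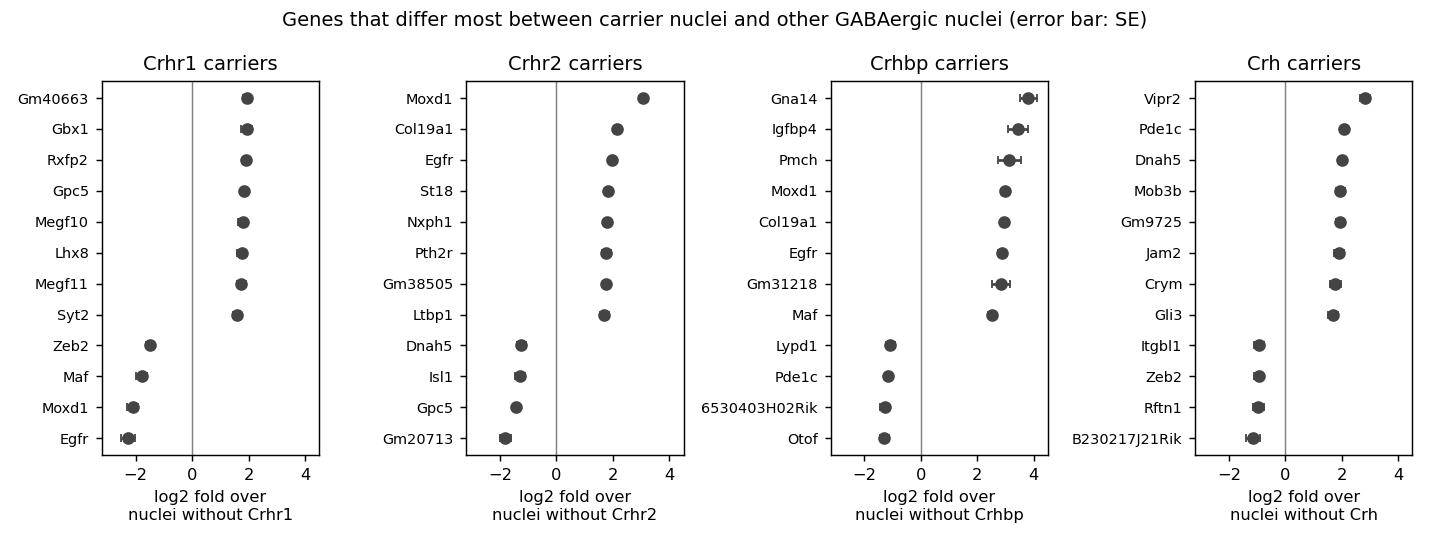
Log2 fold (x axis, with SE bars from the edgeR fit over 4 libraries) of the 8 most raised and 4 most lowered called genes in carriers of Crhr1, Crhr2, Crhbp and Crh over GABAergic nuclei without that gene. Moxd1, Col19a1 and Egfr are higher in carriers of Crhr2 and Crhbp, and Moxd1 and Egfr are lower in carriers of Crhr1; the Pmch point rests on female 2 alone and the Vipr2 point on 3 libraries.

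Crhr2 carriers, 219 and 212 in male and 75 and 63 in female libraries, were marked by Moxd1. It stood at 123 and 148 CPM in male and 107 and 116 CPM in female carriers, against 18.1, 17.0, 10.3 and 8.95 CPM in the other nuclei (log2 fold 3.07 ± 0.09 SE, edgeR adjusted p = 1.9e-33). Also higher were Col19a1, a collagen (2.13), Egfr (1.98), the transcription factor gene St18 (1.82) and Nxph1, a neurexin ligand (1.78). So were Pth2r, the parathyroid hormone 2 receptor (1.77), Gm38505 (1.76) and, in 3 of 4 libraries, Ltbp1, which binds latent TGF-beta (1.69). Lower in all 4 libraries were Gm20713 (-1.81), Gpc5 (-1.44), Isl1, a LIM homeobox factor gene (-1.29), and Dnah5 (-1.24), among 849 of 15183 genes called (5.59%, 2.82% higher and 2.77% lower). Gpc5 was thus lower in Crhr2 carriers and higher in Crhr1 carriers; the difference between the 2 folds was not tested. Crhbp was at 6.45 and 9.95 CPM in male and 0 and 18.8 CPM in female Crhr2 carriers, against 2.22, 1.91, 1.17 and 2.42 CPM in the others (log2 fold 2.08 ± 0.29 SE, edgeR adjusted p = 3.1e-07), higher in all libraries except female 1. Slc1a2 of the astrocyte, Lhfpl3 of the OPC, Gbx1 of the cholinergic and Sv2b of the glutamatergic markers were lower in Crhr2 carriers, and no marker of another cell type was higher. Of the peptide list, 18 genes were tested; Npy, Sst and Tac2 were higher and Nts and Pdyn lower.

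Crhbp carriers were fewer, with 105 and 78 in male and 21 and 51 in female libraries. Their leading gene was Gna14, a Gq-family alpha subunit, at 33.1 and 12.6 CPM in male and 64.1 and 48.9 CPM in female carriers, against 2.28, 2.01, 3.66 and 1.78 CPM in the others (log2 fold 3.799 ± 0.31 SE, edgeR adjusted p = 1.2e-32). Igfbp4, an insulin-like growth factor binding protein (3.44), Moxd1 (2.98), Col19a1 (2.93), Egfr (2.87), Gm31218 (2.83) and Maf (2.53) followed, each higher in all 4 libraries. Lower were Otof (-1.29), 6530403H02Rik (-1.29), Lypd1 (-1.08) and, in 3 of 4 libraries, Pde1c (-1.15, DESeq2 adjusted p = 0.199), among 671 of 14912 genes called (4.5%, 2.36% higher and 2.14% lower). Pmch, the melanin-concentrating hormone precursor, was called with a log2 fold of 3.13, but stood at 1.18 and 0.788 CPM in male and 0 and 232 CPM in female carriers, and without female 2 the log2 fold was -0.91 with an adjusted p of 0.822. Of marker lists of other cell types, 1 of 4 tested astrocyte genes (Slc1a3), 1 of 5 oligodendrocyte genes (Mobp) and 1 of 2 vascular genes (Pdgfrb) were higher in Crhbp carriers, and 2 of 4 OPC genes (Ptprz1 and Lhfpl3) were lower. The summed oligodendrocyte markers were at 92.9 and 95.3 CPM in male and 372 and 218 CPM in female carriers, against 95.5, 98.0, 252 and 201 CPM in the others, and the summed OPC markers at 867, 799, 763 and 1089 CPM against 1308, 1308, 1415 and 1340 CPM. The summed astrocyte markers were at 231, 202, 205 and 188 CPM in carriers against 187, 204, 271 and 184 CPM in the others, and their part in the carrier differences was not tested. Of the 17 peptide genes tested, Npy, Cartpt, Sst and Pmch were higher and Penk lower. Npy was at 17.8 and 31.5 CPM in male and 6.41 and 20.4 CPM in female carriers, against 2.64, 3.21, 2.20 and 5.39 CPM in the others (log2 fold 2.71 ± 0.31 SE, edgeR adjusted p = 7.4e-16). Crhr2 was higher at 14.2, 16.5 and 14.3 CPM in male 1, male 2 and female 2 carriers and 0 in female 1, against 5.12, 5.64, 3.47 and 4.45 CPM in the others in that order (log2 fold 1.504 ± 0.31 SE, edgeR adjusted p = 0.000101), and without male 1 the adjusted p was 0.0521.

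Crh carriers, 127 and 152 in male and 38 and 90 in female libraries, differed from other GABAergic nuclei even though most had a single Crh UMI. Their median depth was 14345 and 14006 UMIs in male and 5509 and 6789 UMIs in female libraries. The other nuclei had 12416, 11970, 5873 and 6138 UMIs, so carriers were deeper except in female 1. The part of depth in the differences was not tested. Pde1c, a calmodulin-dependent phosphodiesterase, was at 532 and 432 CPM in male and 884 and 770 CPM in female carriers, against 150, 126, 290 and 95.4 CPM in the others, all 4 higher (log2 fold 2.07 ± 0.10 SE, edgeR adjusted p = 1.5e-28). Vipr2, the receptor shared by VIP and PACAP, was at 67.7 and 67.9 CPM in male and 0 and 14.3 CPM in female carriers, against 8.02, 8.21, 4.89 and 4.55 CPM in the others, higher in 3 of 4 libraries (log2 fold 2.83 ± 0.17 SE, edgeR adjusted p = 8.4e-23). With DESeq2 the log2 fold of Vipr2 was 1.98 and the adjusted p 0.397. Dnah5, a ciliary dynein (2.02, 3 of 4 libraries), Mob3b (1.95), Gm9725 (1.92), Jam2, a junctional adhesion molecule (1.90), Crym, a thyroid hormone binding crystallin (1.77), and Gli3, a hedgehog pathway factor (1.67), were also higher. Lower were B230217J21Rik (-1.15), Rftn1 (-0.96), Itgbl1 (-0.93) and, in 3 of 4 libraries, Zeb2 (-0.95), among 618 of 15050 genes called (4.11%). Among the markers of other cell types, Gbx1 and the astrocyte gene Slc1a2 were higher in Crh carriers and the OPC gene Lhfpl3 was lower, and their part in the other differences was not tested. The DESeq2 adjusted p was above the threshold for Dnah5 (0.0758), B230217J21Rik (0.0525), Rftn1 (0.0572) and Zeb2 (0.9999), and Zeb2 also lost its call without male 2 (0.319).

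Nuclei with at least 2 Vipr2 UMIs, a class chosen after these values were seen, had a Crh UMI in 23 of 100 and 23 of 92 cases in the males and in 0 of 19 and 4 of 20 in the females. The shares were 23.0% and 25% in male and 0% and 20% in female libraries, where a count of 0 of 19 has an exact 95% interval up to 17.6%. Of nuclei with no Vipr2 UMI, 2.67% and 3.41% in male and 1.25% and 3.19% in female libraries had a Crh UMI. Median depths were 13221, 15047, 6546 and 10069 UMIs with Vipr2 and 12412, 11967, 5861 and 6143 UMIs without. None of the 27 GABAergic nuclei with 3 or more Crh UMIs had 2 Vipr2 UMIs, and 26 of them had none. Of the 17 peptide genes tested, Nts, Pdyn, Penk and Tac2 were higher in Crh carriers and none was lower, where 2.67% of 15050 genes were called higher and 1.44% lower. Penk was at 140 and 116 CPM in male and 45.4 and 135 CPM in female carriers, against 80.6, 90.4, 32.1 and 86.2 CPM in the others (log2 fold 0.62 ± 0.08 SE, edgeR adjusted p = 5.1e-08). Drd2, used for a split, was higher too, with a log2 fold of 0.73 ± 0.16 (edgeR adjusted p = 0.00117), and of the 32 signalling genes Adcy5, Adcy9 and Gnal were higher and Rapgef4 lower.

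Among glutamatergic nuclei, 83 and 79 carriers of Crhr1 in male and 23 and 25 in female libraries could be compared at 1 UMI. They had less Avp, the vasopressin precursor, at 12.6 and 9.88 CPM in male and 5.996 and 2.67 CPM in female carriers, against 46.0, 80.2, 26.5 and 14.4 CPM in the others, all 4 lower (log2 fold -2.40 ± 0.25 SE, edgeR adjusted p = 4.8e-05). Both female carrier values rest on very few Avp UMIs, from 23 and 25 nuclei with a median depth of 6878 and 13599 UMIs. Male carriers had 15648 and 14637 UMIs. The other nuclei were shallower, at 12065 and 11494 UMIs in male and 5918 and 6116 UMIs in female libraries, and the part of depth was not tested. Ndst4, a heparan sulfate sulfotransferase, was lower as well (-1.06), as were Sim1 and Il31ra, while Nell1 (0.79), Galnt14, Cnih3, Pde3a, Ptk2b and Tacr1 and, in 3 of 4 libraries, Ankfn1 and 6530403H02Rik were higher, among 31 of 9461 genes called (0.328%). Without male 1, 9 genes were called, without male 2, 12, and without female 1, 47. Avp, Ndst4 and Nell1 were the only ones of these 12 that kept their call under every alternative run.

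Genes further along the stress axis were read as levels only. Nr3c1, the glucocorticoid receptor, was at 120 and 122 CPM in male and 95.4 and 93.4 CPM in female GABAergic nuclei, and Nr3c2, the mineralocorticoid receptor, at 319 and 313 CPM in males and 372 and 264 CPM in females. Fkbp5, a glucocorticoid-induced chaperone, was at 65.5 and 64.6 CPM in males and 54.5 and 54.3 CPM in females. Both males lay above both females for Nr3c1 and Fkbp5, as for 16.9% of genes in this class. Pomc, the corticotropin precursor, was at 1.502 and 1.502 CPM in males and 0.830 and 2.54 CPM in females, against 1.42, 0, 0.658 and 0.907 CPM in oligodendrocytes.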

How the data were processed

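Single-nucleus RNA was measured in 2 male and 2 female libraries. The authors deposited whole-number UMI counts per gene and barcode, not normalized, as sparse matrices. The genome build mm10 and the tools Cell Ranger 6.0.1 and Seurat 5 are named in the submitters' processing notes; per the file headers the matrices came from Cell Ranger 9.0.1 (males), 7.0.0 (female 1) and 7.2.0 (female 2).

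Nuclei with 500 to 8000 genes and under 5% mitochondrial UMIs were kept. Classes needed 2 UMIs (Chat and Slc5a7 for cholinergic, which went before Gad1 and Gad2 or Slc17a6 and Slc17a7, then Gja1 and Aqp4, Mog and Mag, Pdgfra and Cspg4, Inpp5d and Csf1r), and nuclei in several classes were dropped, which served as the treatment of doublets, 13.2% and 12.1% of male and 5.2% and 5.5% of female nuclei. GABAergic nuclei were split at 2 UMIs of Drd1, Drd2 or Moxd1 and 3 of Tshz1 or Sst, and those meeting several were in no split group. The males had 23 barcodes in common, the females 35, and no barcode occurred in both sexes.

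UMI counts were summed per library and group and tested with edgeR 4.0.16 (TMM, filterByExpr, quasi-likelihood, two-sided) in R 4.3.3 over all genes tested, with Benjamini-Hochberg adjustment at 0.05; class, split and carrier fits had library as a block. Log2 folds are male over female, the named group over the other GABAergic groups, or carriers over the rest. CPM are UMIs per 1000000 of the group's UMIs. Intervals are exact Clopper-Pearson or Poisson and, like floors, cover counting error only. Thinning drew 2000 UMIs per nucleus and left out shallower ones. Alternatives were RLE scaling, no filter, DESeq2 1.42.0, raised thresholds, removal of the highest Scrublet scores (scanpy 1.11.5, 0.8% per 1000 barcodes), a replicate block and leaving out each library.

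The carrier rule was to use 2 UMIs unless a library had fewer than 15 carriers. Named genes are the 5 members, the 5 of highest likeness, and the 8 highest and 4 lowest called genes per carrier fit at 20 CPM or more. Members and lists were chosen with earlier results of these data known.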

Additional observations from a re-analysis of the deposited data

Results flagged for a closer look

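Over the 4 libraries, 34 nuclei outside every class held at least 3 Crhr1 UMIs (8 and 11 in the males, 9 and 6 in the females), a signal in nuclei that no comparison used. For Crhr1, the difference between the sexes ran in opposite ways between groups in which every library had at least 10 UMIs: the log2 ratio of mean male to mean female CPM was 0.37 in the Tshz1 split, where both males were above both females, and -0.19 in the Drd2 split, -0.32 in unsplit GABAergic nuclei, -0.29 in glutamatergic nuclei and -0.80 in oligodendrocytes, where both males were below. For Crhr2 it was -0.57 in the Moxd1 split, with both males below, and 0.30 in unsplit nuclei, with both above. Of all genes tested, 18.4% had both males above in the Tshz1 split and 18.5% in unsplit nuclei, and 23.2%, 30.9%, 27.9%, 30.2% and 23.9% had both below in Drd2-split, unsplit, glutamatergic, oligodendrocyte and Moxd1-split nuclei. The difference between groups was not tested.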

How the results depend on the processing

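Between the sexes in GABAergic nuclei, 1 gene was called, against 3 without the low-count filter, 901 with DESeq2, 2 with thresholds raised by 1 UMI and 2 to 11102 when a library was left out; in glutamatergic nuclei 8, against 179, 17 and 6 to 2414 with DESeq2, raised thresholds and a library left out. With a replicate block 4 and 37 genes were called. Deviations of same-numbered libraries correlated at 0.116 and 0.07 in these classes, with only 2 pairs and numbers that the labels do not tie to a shared origin, so they were not taken as pairs, and under the block no member changed its call. Leaving out a library in turn gave log2 folds between the sexes of -0.57 to 0.70 for Crh, 0.39 to 0.82 for Crhr2, -0.02 to 1.12 for Crhbp (-0.02 without female 1) and -1.54 to 1.48 for Ucn3 (1.48 without female 2).

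For classes, glutamatergic against GABAergic called 1612 genes with no filter and 606 to 1091 with a library left out, and Crhr1 was at 0.00 with RLE and -0.06 to 0.02 with a library left out (0.01 without male 2, 0.02 without female 2). Cholinergic Crhr1 was at -0.57 with DESeq2 and -0.77 to -0.51. For splits, raised thresholds gave 345 genes in the Drd1, 902 in the Tshz1 and 176 in the Sst fit, Crhr2 at -1.59 in the Drd1, and Crhbp at -2.75 in the Drd2, -1.33 in the Tshz1 and 2.01 in the Sst split. Counts with a library left out were 352 to 772 (Drd1), 974 to 1794 (Drd2), 675 to 1450 (Tshz1), 1228 to 2217 (Moxd1) and 162 to 413 (Sst). Log2 folds were -0.07 to 0.07 for Crhr1 (0.01 without male 1, 0.07 without male 2) and -2.16 to -1.42 for Crhr2 in the Drd1 split, -1.10 to -0.74 for Crhr2 and -1.79 to -1.13 for Crhbp in the Drd2, -2.02 to -1.46 for Crhbp in the Tshz1 and 0.82 to 2.98 for Crhbp in the Sst split. In the Drd2 split DESeq2 gave -1.0 for Crhr2, no filter -1.38 for Crhbp, and the fit without the Sst and Drd1 splits, added after the data were seen, -0.14 for Crhr1. In the Tshz1 split Crhr2 was at -0.92 with no filter and -1.19 without those 2 splits, and Crhbp at -1.80 with the highest Scrublet scores dropped. In the Moxd1 split Crhr2, Crhbp and Crhr1, and in the Tshz1 split Crhr1, kept direction and call under every alternative run.

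Carrier fits called, with DESeq2 and with a library left out, 273 and 362 to 646 genes for Crh, 448 and 291 to 1086 for Crhr1, 464 and 558 to 984 for Crhr2 and 291 and 308 to 638 for Crhbp. With no filter Crhr1 gave 1206, and in glutamatergic nuclei 124, with 9 to 47 when a library was left out. With a library left out, log2 folds were -0.13 to 0.01 for Crhr1 in Crh carriers, -0.24 to 0.03 for Crh in Crhr1 carriers and -0.91 to 4.14 for Pmch in Crhbp carriers, each reversed without female 2. Of 424 settings compared for 60 named genes, 391 kept direction and call, 32 lost the call and 1 reversed. The 1-UMI carrier fits were added after the data were seen. GABAergic shares with a UMI were 2.94% for Crh, 18.2% for Crhr1, 3.97% for Crhr2, 1.82% for Crhbp and 0.344% for Ucn3 unthinned, against 0.830%, 4.36%, 1.06%, 0.512% and 0.0934% at 2000 UMIs; at 3000 UMIs Crhr1 was at 6.55% and Crhr2 at 1.44%. Causes were not tested. Depth limits Crh, Crhbp and Ucn3 most, with 41, 22 and 2 UMIs in female 1 GABAergic nuclei.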
